A study of Harpegnathos saltator with 47 samples.

Results

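Of 18429 genes measured in brains of the ant Harpegnathos saltator, 100 were taken because their level was lowest in workers from stable colonies and the other 2 groups of ants lay closer to each other than to these workers. The choice used measured values. Levels are in RPKM, reads scaled by gene length and library depth, and were set on the scale log2(RPKM + 1). A group's value was its median in sequencing batch B and its median in batch C, averaged. Of 10195 genes whose mean over the ants was 1 RPKM or more, 2551 had stable workers lowest. In 1163 of these, the gap between the middle group and stable workers was larger than the gap between the highest and the middle group, and the 100 with the largest gap to stable workers are the members. That the members were lower in stable workers is therefore how they were chosen and not a result.

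Harpegnathos is a ponerine ant whose workers keep the ability to mate and lay eggs. When a colony has no reproductive, workers duel with their antennae, and some of the winners become gamergates, which are egg-laying workers with active ovaries, while the others go on as workers. The change of caste in an adult comes with changes in behaviour, in hormones and in gene expression in the brain.

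The study set 3 groups of ants side by side. There were 12 gamergates and 11 workers from nests in which such a transition had taken place, called transition workers here, and 10 workers from stable colonies, called stable workers. Per the labels' protocols, each transition nest was started with 30 young females, aged 1 to 3 days, and 3 males and had no dominant reproductive, and the ants were taken at day 120, when their ovaries were inspected. The stable workers are also marked with day 120, and their age is not stated separately. No genotype, drug or transgene is labelled in any group, and nothing in the labels tells which ants lived together, so that errors and p-values measure the spread between these ants. Brains without optic lobes were sequenced whole as polyA RNA, and in such bulk samples fewer cells of a type and less RNA per cell cannot be told apart.

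The libraries held 4685633 to 11159675 reads in genes in gamergates, 3904943 to 9716236 in transition workers and 5680317 to 11033402 in stable workers. The run date in the library names gives 3 batches. Batch A was made of 2 gamergates and 2 transition workers and had no stable worker. Each group had 5 ants in batch B, and in batch C there were 5 gamergates with 4 transition workers and 5 stable workers. Transition workers 9 and 10 had 19.96% and 7.82% of their reads on rRNA, and stable workers 7 and 9 had 7.04% and 5.87%, against group medians of 0.879% in gamergates, 0.647% in transition workers and 1.10% in stable workers. Lists made without 1 of these ants shared 80 and 72 genes with the members for transition workers 9 and 10, and 77 and 74 genes for stable workers 7 and 9. The table gives only Hsal_ identifiers, and 0 of these matched a gene name in the annotation at hand, so that the members are described by identifier, length and level. Markers of cell types could not be checked for the same reason, and reads shared with near-identical copies or overlapping genes could not be recognised from the identifiers. For Hsal_03463, the RPKM and the authors' deposited comparison disagreed widely on the level, as given below.

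The member with the largest gap was Hsal_11594, whose group values lay 1.17 apart between transition workers and stable workers on the log2 scale. Its lowest, median and highest levels were 3.38, 11.9 and 47.0 RPKM in gamergates, 2.83, 7.42 and 55.1 RPKM in transition workers, and 1.51, 4.91 and 30.8 RPKM in stable workers. The 3 groups overlapped, and 1 stable worker, number 8, lay above 10 of the 12 gamergates. This is a short feature of 181 bases, and its RPKM rest on a median of 11 reads per ant. In batch B its medians were 10.9 RPKM in gamergates, 7.31 RPKM in transition workers and 2.79 RPKM in stable workers. In batch C they were 20.8 RPKM in gamergates, 20.4 RPKM in transition workers and 7.07 RPKM in stable workers, so that stable workers had the lowest median in each batch.

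Hsal_11669, 546 bases long, came next with a gap of 1.14. Its lowest, median and highest levels were 0, 6.36 and 35.6 RPKM in gamergates, 2.69, 9.79 and 34.9 RPKM in transition workers, and 0, 3.16 and 34.0 RPKM in stable workers. The lowest transition worker lay under the median stable worker, and 4 gamergates lay below 1 RPKM.

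Hsal_04240, 2652 bases long, was the member with the third largest gap, 1.09, and had more reads, with a median of 149 per ant. It had 0.710, 10.8 and 157 RPKM as lowest, median and highest level in gamergates, 2.55, 12.4 and 193 RPKM in transition workers, and 3.35, 5.88 and 168 RPKM in stable workers. The highest ant of each group was more than 10 times its group's median, and the 2 lowest ants of all were gamergates. Stable worker 8 had 168 RPKM and stable worker 9 had 31.5 RPKM, whereas the other 8 stable workers had 3.35 to 9.18 RPKM. The mean was 28.2 ± 44.7 RPKM in gamergates (SD, n = 12), 33.4 ± 55.9 RPKM in transition workers (SD, n = 11) and 24.4 ± 51.2 RPKM in stable workers (SD, n = 10). The differences of these means were smaller than the SD within any group.

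**Figure D1:**
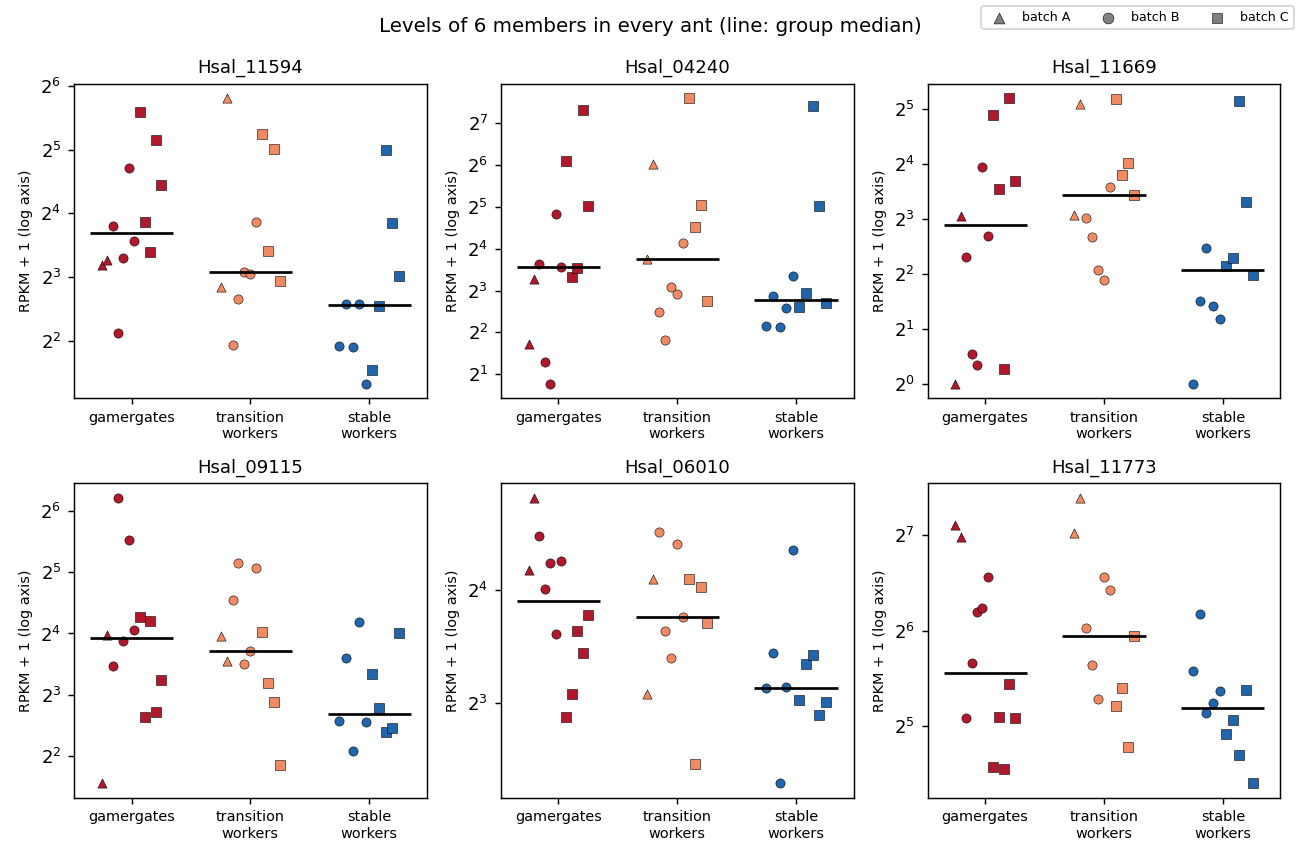
RPKM + 1 on a log axis in every ant for 6 members, with gamergates, transition workers and stable workers from left to right; each point is an ant, its shape is the sequencing batch, and the line is the group's median. In each panel the stable workers have the lowest median, and points of all 3 groups overlap.

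Further down the list, Hsal_09115 had a gap of 0.96. Its lowest, median and highest levels were 1.94, 14.2 and 73.2 RPKM in gamergates, 2.63, 12.2 and 34.3 RPKM in transition workers, and 3.24, 5.44 and 17.1 RPKM in stable workers. In batch B its medians were 15.6 RPKM in gamergates, 22.2 RPKM in transition workers and 4.98 RPKM in stable workers, and in batch C they were 8.48 RPKM in gamergates, 7.26 RPKM in transition workers and 5.90 RPKM in stable workers. The distance between the groups was larger in batch B than in batch C, a difference that was not tested. Hsal_02897 was alike in this, with batch B medians of 9.66 RPKM in gamergates, 9.51 RPKM in transition workers and 2.10 RPKM in stable workers, and batch C medians of 3.62 RPKM in gamergates, 3.15 RPKM in transition workers and 2.77 RPKM in stable workers.

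Hsal_06010, with a gap of 0.73, varied less between ants of a group and batch, with an SD of 0.52 on the log2 scale. It had 6.35, 13.9 and 27.1 RPKM as lowest, median and highest level in gamergates, 4.52, 12.5 and 21.8 RPKM in transition workers, and 3.89, 7.79 and 19.4 RPKM in stable workers. In 9 of the 10 stable workers it lay below 10 RPKM, and the exception was stable worker 5 with 19.4 RPKM. Hsal_04492, with a gap of 0.68, had 5.05, 11.5 and 22.4 RPKM in gamergates, 7.82, 11.9 and 18.2 RPKM in transition workers, and 3.89, 7.08 and 15.7 RPKM in stable workers. Its 2 highest ants were the gamergates of batch A, which the rule did not use.

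The member with the highest mean level was Hsal_11773, 298 bases long, with a gap of 0.49. It had 22.4, 46.0 and 137 RPKM as lowest, median and highest level in gamergates, 26.4, 60.7 and 167 RPKM in transition workers, and 20.05, 35.4 and 71.5 RPKM in stable workers. Its level also differed by batch. The 4 ants of batch A had 126 RPKM and 137 RPKM in gamergates and 129 RPKM and 167 RPKM in transition workers, above every ant of the other batches. In batch C, its medians were 32.8 RPKM in gamergates, 38.5 RPKM in transition workers and 29.2 RPKM in stable workers.

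Hsal_10999, 1396 bases long, was another member of high level and had a median of 266 reads per ant. Its lowest, median and highest levels were 3.29, 21.7 and 209 RPKM in gamergates, 7.48, 47.5 and 91.5 RPKM in transition workers, and 6.51, 19.4 and 87.6 RPKM in stable workers. In batch B the transition workers had 41.2 to 91.5 RPKM and the stable workers 6.51 to 22.4 RPKM, with no overlap. In batch C the transition workers had 7.48 to 23.7 RPKM and the stable workers 9.98 to 87.6 RPKM, and the order was not the same.

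Some members rest on very few reads. Hsal_06929 is 77 bases long, had a median of 3 reads per ant and was at 0 in 8 ants. It had 0, 6.12 and 25.6 RPKM as lowest, median and highest level in gamergates, 0, 3.49 and 26.3 RPKM in transition workers, and 0, 4.796 and 9.70 RPKM in stable workers. Over all ants its median was thus lower in transition workers than in stable workers. It entered the list through batch medians of 2.36 RPKM in gamergates, 2.09 RPKM in transition workers and 0 in stable workers in batch B, and of 7.48 RPKM in gamergates, 5.77 RPKM in transition workers and 5.08 RPKM in stable workers in batch C. Hsal_16788 had a median of 1 read per ant and was at 0 in 11 ants. In all, 32 members were at 0 in at least 1 ant, and the share of all genes with such an ant was not counted.

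The gap to stable workers had a median of 0.45 over the members and was above 1 in 5, between 0.5 and 1 in 30 and under 0.5 in 65. At the end of the list, Hsal_07689 had a gap of 0.359 and Hsal_09777 a gap of 0.356. Just outside it, Hsal_14783 also had 0.356, Hsal_01120 had 0.353 and Hsal_01354 had 0.352, so that no step in the values marks where the list ends. The gap between the 2 other groups had a median of 0.14. Gamergates were the highest group in 46 members and transition workers in 54.

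Batches B and C did not contribute equally. In batch B, stable workers had the lowest median in 93 members, beside 31.5% of all 10195 genes, and in batch C in 78 members, beside 23.9% of all genes. They were lowest in both batches in 72 members, beside 6.53% of all genes, in batch B and not in batch C in 21 members, and in batch C and not in batch B in 6. The difference between gamergates and stable workers had a median over the members of 0.68 in batch B and 0.38 in batch C on the log2 scale. That between transition workers and stable workers had a median of 0.66 in batch B and 0.43 in batch C. These values were used by the rule and are given as a description.

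**Figure D2:**
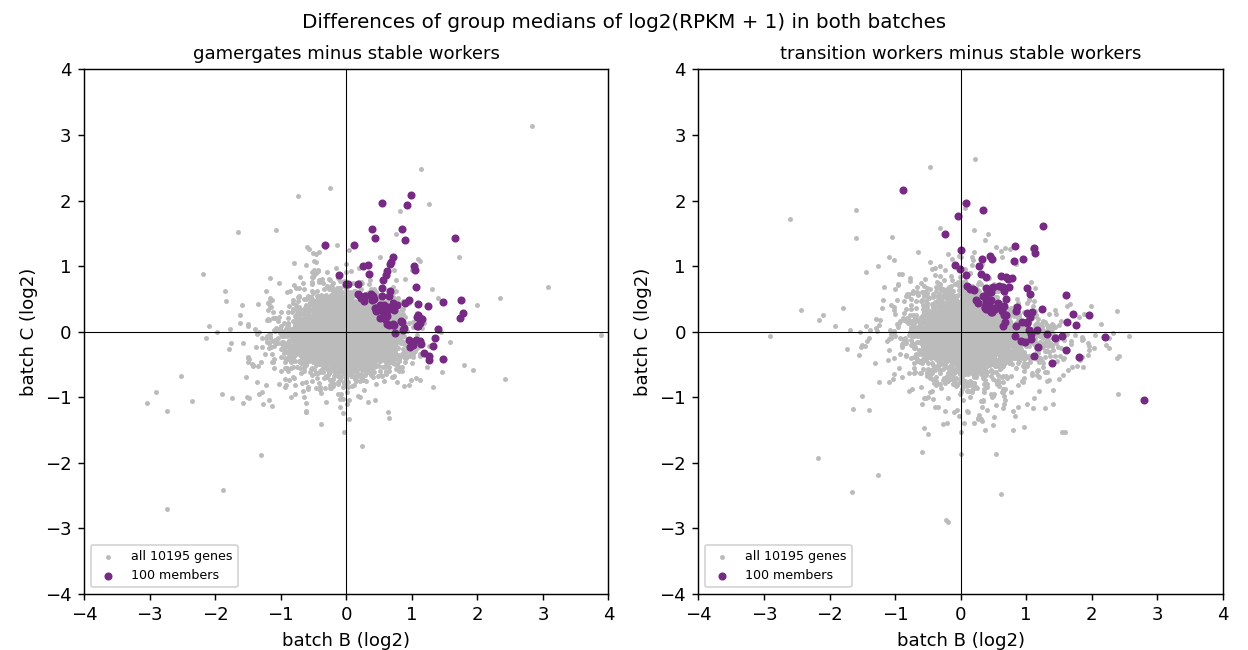
Difference of group medians of log2(RPKM + 1) in batch B (x axis) and batch C (y axis), for gamergates minus stable workers (left) and transition workers minus stable workers (right); grey points are all 10195 genes and purple points the 100 members. The members lie along the upper right edge of the cloud, where the rule places them, and 4 genes on the left and 2 on the right, none a member, lie outside the axes.

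In batch B the low level rested on some of the stable workers more than on others. Over the 100 members, the median of log2(RPKM + 1) in an ant was 1.97, 1.84 and 1.802 in stable workers 1, 3 and 5, against 2.24 in stable worker 2 and 2.60 in stable worker 4. The same median ran between 2.29 and 2.93 in the gamergates and between 2.37 and 3.05 in the transition workers of that batch, so that stable worker 4 lay among them. In batch C it ran between 2.65 and 2.93 in gamergates, between 2.54 and 2.84 in transition workers and between 2.24 and 2.79 in stable workers, and the groups overlapped. Over all genes the median lay between 3.79 and 4.49 in the 33 ants.

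No member had every gamergate and every transition worker above every stable worker, over all ants or within batch B or batch C. Of all genes, 0% had this over all ants, 0.0196% in batch B and 0% in batch C. For transition workers against stable workers in batch B, the groups did not overlap in 3 members, Hsal_10999, Hsal_06208 and Hsal_11482, beside 0.294% of all genes, and in batch C in Hsal_03463 and Hsal_03664, beside 0.226% of all genes. The RPKM of Hsal_03463 rest on 0 to 98 reads per ant. Its mean signal in the authors' deposited comparison of gamergates and transition workers was 17887. The reason for this disagreement was not tested, and the level of this member is uncertain. For gamergates against stable workers, no member was free of overlap in batch B, beside 0.51% of all genes. In batch C, 3 members were, Hsal_11011, Hsal_08515 and Hsal_04495, beside 0.353% of all genes. None of these 8 members was free of overlap in both batches. The rule used these contrasts, so that the counts describe the members and are not read further.

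Hsal_11011, 512 bases long, shows how such a pattern looked. In batch C its levels were 12.0, 16.2, 15.1, 14.8 and 17.2 RPKM in the gamergates and 8.83, 8.25, 11.5, 9.47 and 9.79 RPKM in the stable workers. The 4 transition workers of that batch had 7.24, 13.04, 12.2 and 17.8 RPKM and overlapped with both. In batch B the gamergates had 2.501, 14.6, 17.0, 5.33 and 18.5 RPKM and the stable workers 10.6, 10.1, 6.10, 8.78 and 7.75 RPKM, where 2 gamergates lay below every stable worker.

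In a limma model of all 33 ants with the batch as a term, 0 members had an adjusted p under 0.05 for the difference of gamergates from stable workers, where 26 of 11234 rows or 0.231% passed. Between transition workers and stable workers 0 members passed, where 1 row or 0.0089% did. At an unadjusted p under 0.05, 20 members were higher in gamergates than in stable workers, beside 2.38% of all rows, and 20 were higher in transition workers than in stable workers, beside 0.926% of all rows. With voom on the recovered reads these counts were 17 and 15, beside 258 and 99 of all 11234 rows. The adjusted threshold was then passed by 0 members in both comparisons, by 5 rows for gamergates and by 1 row for transition workers. The rule had selected on both contrasts, and nothing is read from these counts.

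The fitted differences follow from the choice and are a description. Between gamergates and stable workers they were above 0 in 99 members, with a median of 0.39 and a range of −0.11 to 1.24 on the log2 scale. Between transition workers and stable workers they were above 0 in 97 members, with a median of 0.42 and a range of −0.02 to 1.41. Both comparisons share the same stable workers, and the rule fixed the direction in both. For Hsal_11594 the fitted difference was 1.24 (SE 0.407) between gamergates and stable workers and 1.05 (SE 0.417) between transition workers and stable workers. For Hsal_04240, whose ants varied widely, with an SD of 1.55 within groups and batches, the difference from stable workers was 0.36 (SE 0.631) in gamergates and 0.78 (SE 0.647) in transition workers. By batch medians, the difference of its gamergates from stable workers was 0.98 in batch B and 2.08 in batch C, and that of its transition workers 0.33 in batch B and 1.86 in batch C. For Hsal_01258, whose ants varied least among the members with an SD of 0.28, it was 0.45 (SE 0.137) in gamergates and 0.28 (SE 0.140) in transition workers. That gene had 7.07, 11.003 and 17.5 RPKM as lowest, median and highest level in gamergates, 6.81, 9.92 and 12.6 RPKM in transition workers, and 4.98, 7.13 and 11.7 RPKM in stable workers.

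Each library name begins with a prefix, b, H or ND, whose meaning the labels leave unstated. The b prefix stood on most gamergates, on 3 transition workers of batch B and on no stable worker. In batch C, the only gamergate with the H prefix was number 12, while all transition workers and all stable workers carried it. With the prefix as a further term, 1 member in place of 20 was higher in gamergates than in stable workers at an unadjusted p under 0.05. Of all 11234 rows, 121 in place of 267 were. In transition workers, 14 members in place of 20 were higher than in stable workers at that level, beside 64 in place of 104 of all rows. The fitted differences between gamergates and stable workers were then above 0 in 76 members in place of 99, with a median of 0.24 in place of 0.39. Those between transition workers and stable workers were above 0 in 93 members in place of 97, with a median of 0.33 in place of 0.42. Between the gamergates with the b prefix and the stable workers, the prefix and the caste cannot be told apart.

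The same rule could be applied in 1 batch and its genes measured in the other. The group values then come from ants whose own values did not rank the genes, although the minimum mean of 1 RPKM was still taken over all ants, those of the measured batch included. Applied to batch B alone, it gave 100 genes with gaps of up to 2.41, of which 40 are members. In batch C, stable workers were lowest in 26 of these 100 genes, beside 23.9% of all 10195 genes. Gamergates were above stable workers there in 48 genes, beside 42.4% of all genes, and transition workers in 39 genes, beside 40.9% of all genes. The median difference in batch C was −0.04 between gamergates and stable workers and −0.12 between transition workers and stable workers on the log2 scale, against −0.04 for both over all genes. In limma within batch C, 0 of the 100 passed an adjusted p of 0.05 in either comparison, beside 0% of all rows. At an unadjusted p under 0.05, 1 was higher in gamergates than in stable workers, beside 0.988% of all rows, and 0 were higher in transition workers, beside 0.935%. Lower at that level were 1 in gamergates, beside 1.02% of all rows, and 5 in transition workers, beside 2.65%.

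Applied to batch C alone, the rule gave 100 genes of which 31 are members. Measured in batch B, stable workers were lowest in 35 of them, beside 31.5% of all genes. Gamergates were above stable workers in 49, beside 43.9% of all genes, and transition workers in 55, beside 57.5% of all genes. The median differences there were 0.00 between gamergates and stable workers and 0.06 between transition workers and stable workers, against −0.04 for gamergates and 0.05 for transition workers over all genes. In limma within batch B, 0 of the 100 passed an adjusted p of 0.05 in either comparison, beside 0.0267% of all rows for gamergates and 0% for transition workers. At an unadjusted p under 0.05, 3 were higher in gamergates than in stable workers, beside 3.44% of all rows, and 1 was higher in transition workers, beside 2.87%. In the other direction, 6 were lower in gamergates, beside 5.05% of all rows, and 6 in transition workers, beside 2.51%. By these shares, the 100 genes chosen in 1 batch had stable workers lowest in the other batch about as often as genes in general. The lists made in the 2 batches nevertheless shared 6 genes, where each list held 100 of 10195 genes. How many genes 2 unrelated lists of this size would share was not tested, and the 6 are given as a description.

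**Figure D3:**
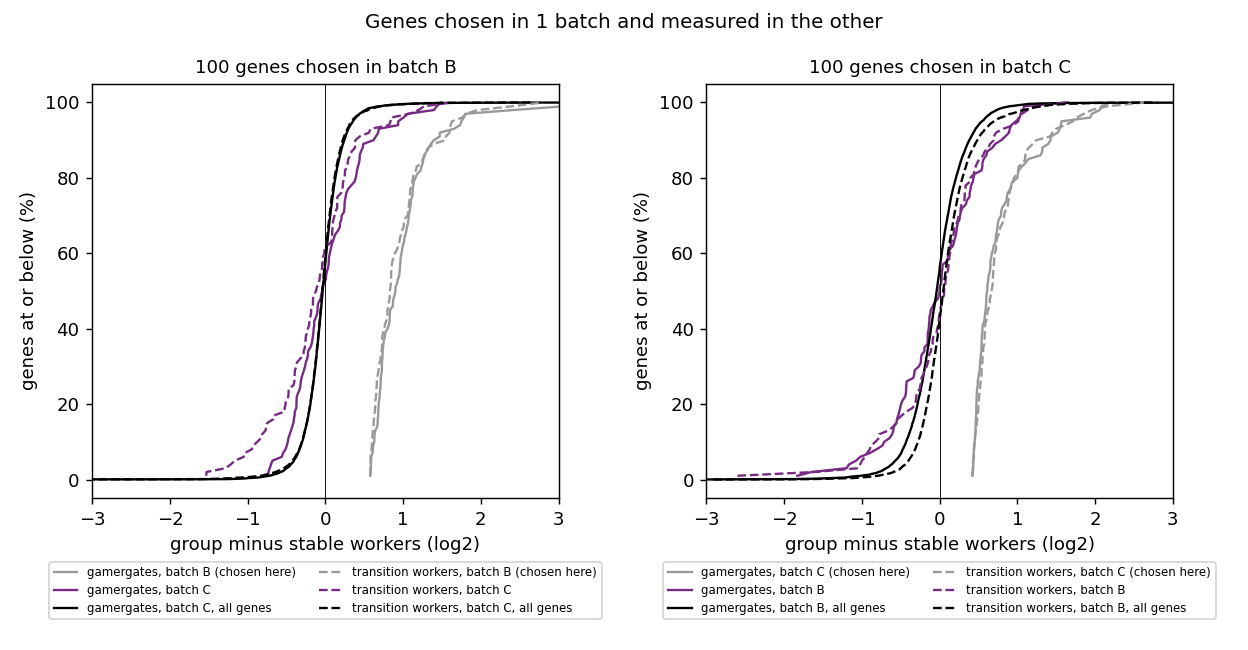
Share of genes at or below a difference from stable workers (log2, x axis), for the 100 genes chosen in batch B (left) and in batch C (right), with full lines for gamergates and dashed lines for transition workers. Grey lines are the genes in the batch that chose them, purple lines the same genes in the other batch and black lines all genes there; the purple lines cross 0 near the middle, as the black lines do, and are flatter. Values beyond the axis are not drawn.

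The 4 ants of batch A were used in the choice only through the minimum mean of 1 RPKM, and have no stable workers beside them. Of the 100 members, 65 and 77 were above the stable workers' value in the 2 gamergates of batch A and 79 and 83 in the 2 transition workers. The stable workers' value is the one the rule had picked as low, and over all genes the share above it was 43.3% to 51.2% in these ants. How far the choice of a low value sets the members' counts was not tested. The median of log2(RPKM + 1) over the members was 2.77 and 3.04 in these gamergates and 2.85 and 3.29 in these transition workers.

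Between gamergates and transition workers, which the rule holds close together, 0 members passed an adjusted p of 0.05 in limma, beside 0.107% of all rows. An unadjusted p under 0.05 was found for 3 members, beside 9.39% of all rows. The fitted differences had a median of −0.02, ran from −0.97 to 0.75 and were above 0 in 46 members. In the authors' deposited table of this comparison, 0 members had an adjusted p under 0.05, beside 0.567% of its genes, and 8 had an unadjusted p under 0.05, beside 7.40% of its genes. The member with the lowest adjusted p there was Hsal_08447, at 0.0984, with a log2 fold change of −1.39 in the authors' deposited table when its sign is set so that positive values are higher in gamergates. Its lowest, median and highest levels were 0.191, 1.75 and 6.70 RPKM in gamergates, 0.636, 2.72 and 32.1 RPKM in transition workers and 0.197, 1.66 and 7.44 RPKM in stable workers.

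The members were short, and few reads lay behind them. Their median length was 632.5 bases, against 1611 bases over all 10195 genes, and 38 of the 100 were shorter than 500 bases, beside 12.0% of all genes. Their mean level had a median of 6.71 RPKM, against 18.0 RPKM over all genes, and ran from 1.02 to 57.7 RPKM. A median ant had 21 reads on a median member, against 214 reads on a median gene, and 48 members had a median under 20 reads, beside 12.3% of all genes. How far a ranking by gaps between medians of few ants favours short genes with few reads was not tested. The longest member, Hsal_09311 with 21944 bases, was an exception in length. At its low level of 0.911 RPKM as median in gamergates, 0.730 RPKM in transition workers and 0.339 RPKM in stable workers it lay near the lower limit of the list.

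The members also varied more between ants of the same group. The SD of log2(RPKM + 1) within groups and batches had a median of 0.66 over the members, against 0.36 over all genes, and ran from 0.28 to 1.70. The gap to stable workers was larger than this SD in 18 of the 100 members and in 24 of all 10195 genes, and the rule had chosen the members for this gap. The rule ordered genes by a gap between medians of these same ants, so that this spread is not independent of the choice, and its part in the list was not tested.

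**Figure D4:**
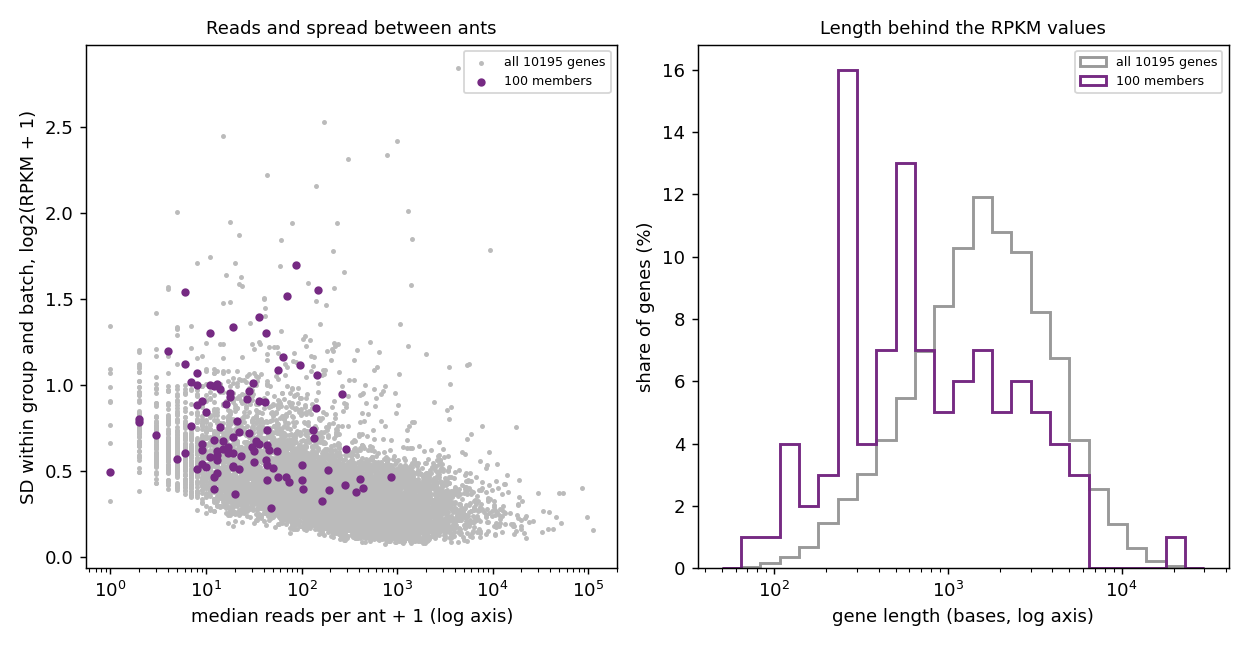
Left, the SD of log2(RPKM + 1) within groups and batches (y axis) against the median reads per ant + 1 (log x axis), with all 10195 genes in grey and the 100 members in purple. Right, the share of genes by length in bases (log x axis); the members lie further left than genes in general in both panels, with medians of 21 against 214 reads and 632.5 against 1611 bases.

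Some members varied together from ant to ant. After each group's mean in each batch was subtracted, the correlation between 2 members over the 33 ants had a median of 0.04 over 4950 pairs, with 5% of pairs under −0.32 and 5% over 0.63. At a correlation of 0.8 or more, a limit set after the values were seen, 58 pairs joined 34 of the members into 7 sets, and 66 members were in none. These correlations share libraries and depth and are given as a description. How many pairs of all genes reach 0.8 was not counted, so that varying together is not read as a trait of the members.

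The largest of these sets held 13 members, Hsal_11594, Hsal_11669, Hsal_04240, Hsal_11513, Hsal_04239, Hsal_11596, Hsal_04238, Hsal_09357, Hsal_11876, Hsal_12656, Hsal_09311, Hsal_01357 and Hsal_02450. All 5 members with a gap over 1 are in it. Correlations within the set ran from 0.52 to 0.985, with a median of 0.80. The ants in which the 13 members were high came from every group. Transition worker 8 was among the 3 highest ants for 10 of the 13, gamergate 11 for 9 and stable worker 8 for 8. The median of log2(RPKM + 1) over the 13 was 5.19 in gamergate 11, 5.25 in transition worker 8 and 5.13 in stable worker 8, and 1.18 in the lowest ant, gamergate 5. It was highest in transition worker 2 of batch A, at 5.30, and was 5.19 in gamergate 8 and 4.63 in transition worker 10. Among stable workers, number 8 stood alone at this height, and the next was number 9 with 3.85. The level of these genes thus differed more between ants of a group than between the groups.

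In batch B, where no ant was that high, the median over the 13 members was 1.18 to 3.94 in gamergates, 1.83 to 3.47 in transition workers and 1.55 to 2.58 in stable workers. In batch C it was 2.502 to 5.19 in gamergates, 2.75 to 5.25 in transition workers and 2.22 to 5.13 in stable workers. Hsal_11513, 614 bases long, had 175 RPKM in gamergate 11, 242 RPKM in transition worker 8 and 177 RPKM in stable worker 8, against medians of 18.2 RPKM in gamergates, 23.7 RPKM in transition workers and 11.3 RPKM in stable workers. Hsal_04239, 1557 bases long, had 253 RPKM in gamergate 11, 279 RPKM in transition worker 8 and 188 RPKM in stable worker 8, against medians of 9.89 RPKM in gamergates, 10.1 RPKM in transition workers and 5.70 RPKM in stable workers. The genes most like Hsal_04240 over all genes were Hsal_04239, with a correlation of 0.985, and Hsal_04238, with 0.968, and 16 genes, 9 of them members, reached 0.8 with it.

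**Figure D5:**
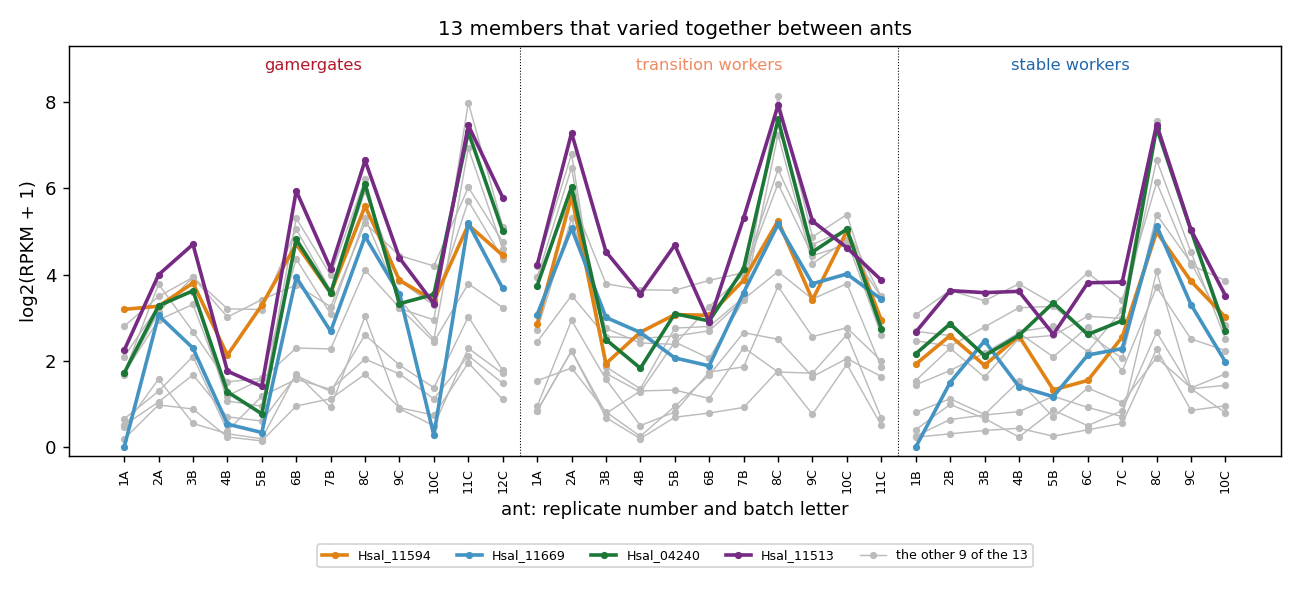
Level as log2(RPKM + 1) (y axis) of the 13 members that varied together, in every ant (x axis: replicate number and batch letter), with gamergates, transition workers and stable workers from left to right; 4 members are in colour and the other 9 in grey. The lines peak together in gamergates 8 and 11, transition worker 8 and stable worker 8, all of batch C, and in transition worker 2 of batch A.

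Hsal_04238, Hsal_04239 and Hsal_04240 carry consecutive identifiers, and their correlations were 0.963 for the first 2 and 0.985 for the last 2. The labels do not state whether identifiers follow the order of genes in the genome. There were 5 pairs of members with consecutive identifiers, and the other 3 had correlations of 0.414 for Hsal_11940 and Hsal_11941, 0.306 for Hsal_12707 and Hsal_12708, and 0.350 for Hsal_13913 and Hsal_13914. Over 7624 such pairs of all genes, the median correlation was 0.196, and 6.55% reached 0.8.

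A set of 7 members, Hsal_07734, Hsal_09322, Hsal_12930, Hsal_08753, Hsal_00768, Hsal_01623 and Hsal_07689, was highest in batch A. The median of log2(RPKM + 1) over these 7 was 4.77 and 4.73 in the 2 gamergates and 4.51 and 4.68 in the 2 transition workers of batch A. It lay between 2.98 and 4.13 in the gamergates, between 2.64 and 4.02 in the transition workers and between 2.78 and 3.98 in the stable workers of the other batches. Not every member of the set was highest in all these ants, and transition worker 1 was among the 3 highest ants for 1 of the 7. Hsal_07689, 5881 bases long and the member with the most reads recovered from the RPKM, had 52.7 and 56.0 RPKM in the gamergates of batch A and 29.9 and 38.2 RPKM in the transition workers of batch A. In this member, gamergate 7 of batch B lay above both transition workers of batch A. Over all ants, Hsal_07689 had medians of 20.7 RPKM in gamergates, 23.0 RPKM in transition workers and 15.8 RPKM in stable workers.

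A set of 5 members, Hsal_09115, Hsal_02897, Hsal_07055, Hsal_07269 and Hsal_03870, had other high ants. Transition worker 4 was among the 3 highest ants for 4 of the 5, and gamergate 4 for 3. The median of log2(RPKM + 1) over the 5 was 4.402 in gamergate 4 and 4.62 in transition worker 4. It was 4.42 in the highest gamergate, number 10 of batch C, 4.46 in transition worker 7 and 4.01 in the highest stable worker, number 10. Hsal_07055, 1541 bases long, differed in direction between batches. In batch B its medians were 6.23 RPKM in gamergates, 14.1 RPKM in transition workers and 1.17 RPKM in stable workers, and in batch C they were 6.63 RPKM in gamergates, 2.58 RPKM in transition workers and 5.60 RPKM in stable workers, with transition workers lowest. The remaining 4 sets held 3, 2, 2 and 2 members.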

How the data were processed

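Brain RNA of 33 ants was sequenced in 47 runs, and 14 ants had 2 runs. The authors' deposited table holds 1 RPKM column per ant, and the labels do not state how 2 runs were joined. Reads were aligned with STAR 2.5.0b, per the submitters' processing notes. Genome build, annotation and counting were not given in the sources used here. A comparison of gamergates and transition workers that the authors deposited, made with DESeq2 per the submitters' processing notes, holds for each gene a mean signal, a log2 fold change and a p-value with its adjusted form. Its sign was turned here so that positive values are higher in gamergates. No per-sample column was left out.

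The RPKM values were whole multiples of the value of 1 read. Whole reads and gene lengths were recovered from them for 15320 rows, and 100% of 404997 values came out whole within 0.01 reads. Depth per ant was 3904943 to 11159675 reads in genes, and few reads limit the precision of short and low members.

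Groups came from the labels, and batches from run dates that library names carry. Values on the scale log2(RPKM + 1) were fitted with limma 3.58.1 in R 4.3.3 (variance trend, group and batch as terms) over 11234 rows averaging 0.5 RPKM or more, 2-sided, with Benjamini-Hochberg adjustment over all rows. The script was tested on simulated data. Other work used Python 3.11.15. The members, the lists and the sets that varied together were chosen with earlier results of these data known. The rule for named genes took the 20 members with the largest gap, the 5 of highest level, those without overlap, and those at the end of the list; not all of these are described. Others were singled out after their values were seen, for spread, length, a fitted difference or a shared pattern. Alternatives were another pseudocount, filter, scaling, batch set or term, voom, and leaving out each ant.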

Additional observations from a re-analysis of the deposited data

Results flagged for a closer look

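In 25 members, the 10 stable workers were searched on the log2(RPKM + 1) scale for an ant far from the others, and 4 members had one, each the highest of its group. Chance flags about 1 in 20 groups of independent values from 1 normal distribution. These stable workers came from batches B and C, and some of the members varied together. The 4 flags can therefore not be set against that rate. Hsal_11513 had at most 175 RPKM in gamergates and 242 RPKM in transition workers, and 177 RPKM in stable worker 8, while the other stable workers had 5.12 to 31.8 RPKM. Hsal_00899 had at most 26.3 RPKM in gamergates and 15.7 RPKM in transition workers, and 30.6 RPKM in stable worker 4. Hsal_14651 had at most 9.17 RPKM in gamergates and 7.90 RPKM in transition workers, and 3.42 RPKM, from 5 reads, in stable worker 8. This gene was at 0 in all 15 ants of batch B, so that its place in the list rests on batch C. Hsal_09777 had at most 12.5 RPKM in gamergates and 13.8 RPKM in transition workers, and 15.1 RPKM in stable worker 8. Stable worker 8 was the ant in 3 of the 4 cases, and the list made without it shared 71 of the 100 members.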

How the results depend on the processing

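The number of members past an adjusted p of 0.05 was 0 in all 3 comparisons, in 12 other settings of the fit and with each of 33 ants left out. Applying the rule in 1 batch and measuring in the other gave 26 of 100 genes with stable workers lowest in batch C, beside 23.9% of all genes. This was 30 beside 23.7% with a pseudocount of 0.1 RPKM, 28 beside 30.8% with median-ratio scaling and 22 beside 23.2% with a minimum mean of 5 RPKM. In batch B it was 35 beside 31.5%, and 33 beside 31.5%, 35 beside 28.8% and 36 beside 30.45% under the same settings. Over all rows, the 26 calls between gamergates and stable workers ran from 0 to 23 under these 12 settings, with 5 under voom, and the 12 between gamergates and transition workers from 0 to 17, with 3 under voom. Leaving out 1 ant moved the 26 to between 4, without stable worker 5, and 47, without gamergate 11. It moved the 12 to between 2, without gamergate 6 or 12 or transition worker 1, and 37, without transition worker 10, and the 1 between transition workers and stable workers to at most 2, without gamergate 5. The list itself depended on the settings of its rule. It shared 53 of 100 members with the list made from group means in place of medians, 59 with a minimum mean of 5 RPKM, 70 with a pseudocount of 0.1 RPKM and 84 with median-ratio scaling. With batch B only it shared 40, and with batch C only 31. Leaving out 1 of 29 ants kept 64 to 88 members, the fewest without stable worker 2 and 66 without stable worker 4. The labels do not say that replicate numbers pair the ants. The correlation of same-numbered ants had a median of 0.0886, with 13 of 31 pairs over 0.1, and that of other pairs had a median of −0.0039, with 88 of 331 over 0.1. A pairing need not bring every pair over 0.1, so that these values cannot decide whether the numbers pair the ants. The main fit does not use the numbers. With the replicate number as a block, 0 members were called in each comparison. Over all rows, 1 in place of 26 was called between gamergates and stable workers, and 2 in place of 12 between gamergates and transition workers. The members' differences from stable workers were then above 0 in 82 in place of 99 for gamergates, with a median of 0.28 in place of 0.39. For transition workers they were above 0 in 93 in place of 97, with a median of 0.33 in place of 0.42. Depth limits the members with few reads, and 48 of 100 had a median under 20 reads per ant.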
